A study of Danio rerio with 6 samples.

Results

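The genes described here code for adhesion proteins of neurons, synapse organisers, neurotransmitter receptors and proteins of synaptic vesicle release. They were taken by name from the table of read counts: sidekicks, contactins and contactin-associated proteins, the NCAM, L1 and DSCAM families, neuroligins, neurexins, LRRTM genes, glutamate, GABA, glycine and nicotinic acetylcholine receptor subunits, synaptotagmins, SNAP25 genes and synapsins. The names matched 148 of 27126 gene names. Of these, 68 had at least 10 counts in 3 or more libraries and were tested, as were 16644 genes in all. RNA of the zebrafish melanoma line ZMELR1 was compared with RNA of its parental line ZMEL1, with 3 libraries per line. ZMEL1 was grown from a single tumor of a mitfa-/- and p53-/- fish that expressed oncogenic human BRAF from the mitfa promoter and carried the miniCoopR cassette, which restores mitfa in melanocytes. ZMELR1 grew out of ZMEL1 during prolonged exposure to a BRAF inhibitor, so both lines share these alleles and come from 1 animal. ZMELR1 cells were kept in PLX4032 (vemurafenib) at 1 μM and ZMEL1 cells in DMSO until RNA isolation. The history of selection and the drug in the medium cannot be told apart in these libraries, and there is only 1 resistant line.

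Adhesion proteins such as the sidekicks, contactins and NCAM hold neurites and synaptic partners together, and neurexins on the presynaptic side bind neuroligins on the postsynaptic side. Ionotropic glutamate receptors (NMDA, AMPA and kainate types) and nicotinic receptors pass cations, GABA-A and glycine receptors pass chloride, and synaptotagmins, SNAP25 and synapsins belong to the release of vesicles. Melanocytes come from the neural crest, which also gives rise to peripheral neurons and glia. GRIN2A, an NMDA receptor gene, is often mutated in human melanoma. The roles given below are known mostly from mammals.

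Libraries held 42591832 to 83741911 counts, with ZMELR1 replicate 3 the smallest, and 56 to 72 of the 148 genes had at least 10 counts in a library. From a list of 16 melanocyte markers, of which 13 were tested, 2 regulators are given here and the list as a whole below. mitfa, the master regulator of the melanocyte lineage, had 949, 892 and 832 CPM in ZMELR1, against 536, 429 and 591 CPM in ZMEL1. sox10, a neural crest regulator, had 608, 597 and 558 CPM in ZMELR1, against 437, 431 and 384 CPM in ZMEL1. These 2 genes do not by themselves establish the cell type. Reads of mitfa can come from the miniCoopR cassette as well as from the gene itself, and the counts do not tell these apart. CPM are counts scaled to the library total with TMM factors, without correction for gene length, so levels are compared here between libraries and not between genes. Values are given in the order of replicates 1, 2 and 3. Libraries with the same replicate number deviated together in both lines, and a fit with the replicate number as a block is quoted where it changes a call. A call is an adjusted p under 0.05 in edgeR's quasi-likelihood test, adjusted over all genes tested. The fit behind a call holds the line only and does not use the shared replicate numbers.

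Of the 68 genes, 4 were lower in ZMELR1 than in ZMEL1 and 0 were higher. They were sdk1a, a sidekick adhesion molecule, grin2bb, an NMDA receptor subunit, GRIK3, a kainate receptor subunit, and gabrr3a, a subunit of the rho type of GABA-A receptor. The calls came to 5.88% of the 68 genes, where 2.64% of all genes tested were lower and 3.48% higher. At an unadjusted p under 0.05 the edgeR test gave 10 higher (14.7%, all genes 13.2%) and 15 lower (22.1%, all genes 11.1%). By adjusted p, DESeq2 gave 4 higher and 10 lower (all genes 7.52% and 6.55%), and limma-voom gave 0 and 4 (all genes 3.13% and 2.4%). DESeq2 added nlgn2a, nrxn3a, syt14a and syt16, higher, and chrna2b, glrbb, grin2aa, grin2ab, grm2a and syt1a, lower, to the 4 calls of edgeR. With the replicate block, edgeR gave 6 higher (8.82%, all genes 12.8%) and 17 lower (25%, all genes 11.8%), and the 4 calls of the unblocked fit were among these 17.

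The 68 genes split evenly, with 34 above 0 and 34 below. Their median log2 fold change was -0.003, beside 0.03 over all genes tested, and their values ran between -5.06 and 3.04. The median size of the log2 fold change, without its sign, was 0.82, beside 0.38 for all genes, with no matching for read number. In 9 genes (13.2%) all ZMELR1 libraries were above all ZMEL1 libraries, and in 16 genes (23.5%) all were below. Over all genes tested these shares were 16.9% and 14.4%. Many of these genes have few reads, and 48 of the 68 reached 10 counts in every library, where 14605 of 16644 genes did so. The filter was passed through ZMEL1 libraries only by 3 genes, grin2ab, grm2a and syt13, and through ZMELR1 libraries only by 0. Such genes enter the test through the line where they are high. grin2ab and grm2a are among the lower genes counted at an unadjusted p under 0.05 and with DESeq2. They are also among those counted with the replicate block and by libraries that did not overlap. syt13 is likewise among the 16 lower genes whose libraries did not overlap.

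**Figure D1:**
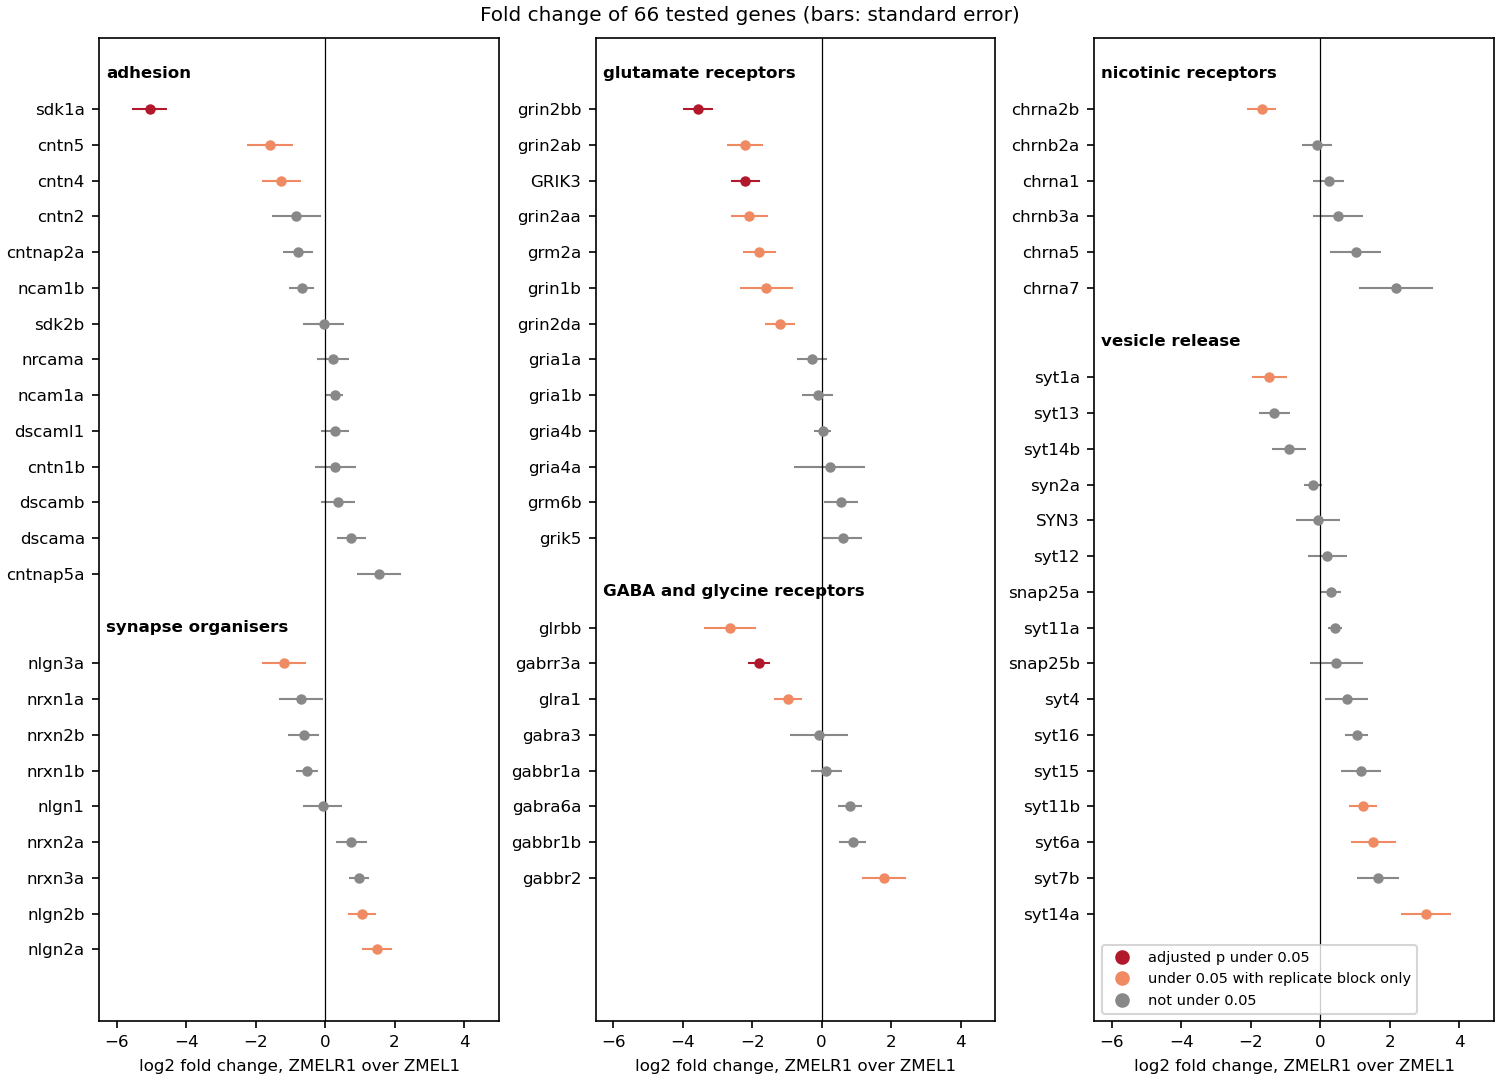
Log2 fold change of ZMELR1 over ZMEL1 (x axis) for 66 of the 68 tested genes (y axis), grouped by role, with standard errors as bars and color for the result of the edgeR test. The 4 called genes all lie left of 0, with sdk1a at -5.06 the farthest, and the genes that passed the edgeR test with the replicate block only lie on both sides.

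The adhesion genes held the widest difference. sdk1a codes for a homophilic adhesion molecule of the immunoglobulin superfamily that matches neurons in layers of the retina. It had 0.479, 0.705 and 0.471 CPM in ZMELR1, against 22.3, 25.9 and 8.03 CPM in ZMEL1. Every ZMELR1 library was below every ZMEL1 library, and ZMEL1 replicate 3 was the lowest of its line. The means were 0.552 ± 0.133 CPM in ZMELR1 and 18.8 ± 9.46 CPM in ZMEL1 (SD, n = 3 each), and the fitted fold was 33.3-fold lower in ZMELR1. The log2 fold change was -5.06 (SE 0.518, edgeR adjusted p = 0.00353), and the call held with each library left out (edgeR adjusted p 0.00476 to 0.0348).

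The reads behind these levels were 28, 64 and 19 counts in ZMELR1, against 1314, 1815 and 562 counts in ZMEL1. Its relative sdk2b had 0.462, 0.595 and 1.81 CPM in ZMELR1, against 0.492, 1.2 and 1.13 CPM in ZMEL1. These ranges overlapped, and the log2 fold change of sdk2b was -0.04 (SE 0.587, edgeR adjusted p = 0.973). The copy sdk1b was not tested, with 1, 7 and 1 counts in ZMELR1 and 6, 4 and 8 counts in ZMEL1.

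Of the 14 tested adhesion genes (24 in the table), 1 was lower (7.14%, all genes 2.64%), 0 were higher (all genes 3.48%) and 13 did not pass. Their median log2 fold change was 0.10. With the replicate block 3 were lower (21.4%, all genes 11.8%) and 0 higher (all genes 12.8%). Contactins are GPI-anchored adhesion proteins of axons, and 4 of 6 were tested. cntn5 had 26.2, 26.8 and 6.42 CPM in ZMELR1, against 79.4, 80.1 and 20.2 CPM in ZMEL1. Replicate 3 was the lowest library in both lines, and within each replicate number ZMELR1 was below ZMEL1 while the lines overlapped. Its log2 fold change was -1.59 (SE 0.658) with an edgeR adjusted p of 0.194, or 0.00143 with the replicate block and 0.0313 without replicate 3 of both lines.

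cntn4 showed 10.9, 22.4 and 4.46 CPM in ZMELR1, against 21.9, 45.4 and 23.5 CPM in ZMEL1. ZMELR1 was again below ZMEL1 within each number, and the lines overlapped, with a log2 fold change of -1.26 (SE 0.564) and an edgeR adjusted p of 0.223, or 0.0251 with the block. cntnap2a, a contactin-associated protein that clusters potassium channels on axons, had a log2 fold change of -0.79 (SE 0.435, edgeR adjusted p = 0.31). Its relative cntnap5a had 1.46, 1.31 and 0.198 CPM in ZMELR1, against 0.306, 0.286 and 0.443 CPM in ZMEL1. Replicate 3 of ZMELR1 fell below the ZMEL1 libraries here, and the log2 fold change of 1.56 (SE 0.633) had an edgeR adjusted p of 0.19, but 0.0247 without ZMELR1 replicate 3. With any other single library left out, cntnap5a was not called.

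The general neural adhesion molecule ncam1a had 47.6, 45.3 and 53.5 CPM in ZMELR1, against 30.8, 35.4 and 55 CPM in ZMEL1. The lines overlapped through ZMEL1 replicate 3, and the log2 fold change was 0.27 (SE 0.238, edgeR adjusted p = 0.516). The neurite guidance gene dscaml1 stood at 3.32 ± 1.01 CPM in ZMELR1 and 2.7 ± 1.11 CPM in ZMEL1 (log2 fold change 0.29, SE 0.398, edgeR adjusted p = 0.686). nrcama, an L1-type molecule of axons, stood at 3.65 ± 1.96 CPM in ZMELR1 and 3.06 ± 1.14 CPM in ZMEL1 (log2 fold change 0.24, SE 0.461, edgeR adjusted p = 0.784). Neither of these showed a difference beyond the spread between its libraries.

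**Figure D2:**
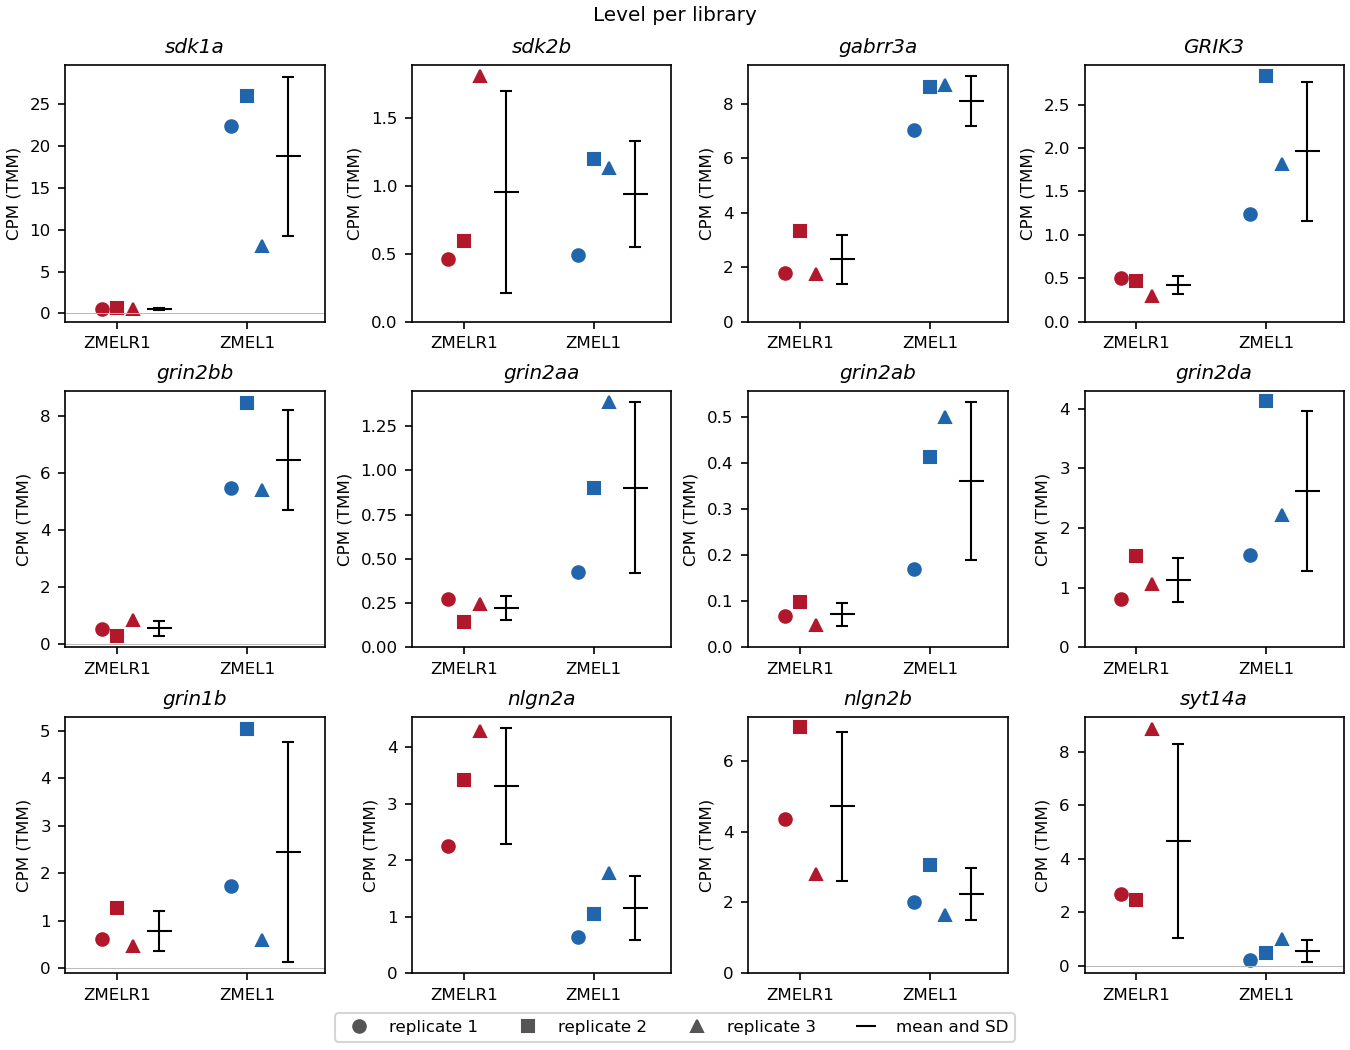
CPM (y axis, from 0) of 12 genes in each library of ZMELR1 (left, red) and ZMEL1 (right, blue), with marker shapes for replicates 1 to 3 and a black bar for mean and SD. In sdk1a and grin2bb the ZMELR1 points lie near 0, below 1 CPM, while the ZMEL1 points lie above 5 CPM, and in grin1b, nlgn2b and sdk2b the lines overlap.

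Among synapse organisers, 9 of 17 genes were tested and 0 passed in either direction (all genes 3.48% higher and 2.64% lower). With the replicate block 2 were higher (22.2%, all genes 12.8%) and 1 lower (11.1%, all genes 11.8%). Neuroligin 2 belongs to inhibitory synapses, and both its copies had higher values in ZMELR1 in each replicate number. nlgn2a had 2.24, 3.42 and 4.29 CPM in ZMELR1, against 0.645, 1.06 and 1.77 CPM in ZMEL1, without overlap. Its log2 fold change was 1.51 (SE 0.432) with an edgeR adjusted p of 0.0894, or 0.00913 with the block. nlgn2b had 4.37, 6.96 and 2.8 CPM in ZMELR1, against 2.02, 3.07 and 1.66 CPM in ZMEL1. The lines overlapped by replicate 3 of ZMELR1, and the log2 fold change of 1.07 (SE 0.405) had an edgeR adjusted p of 0.164, or 0.0191 with the block.

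nlgn3a, a neuroligin of excitatory and inhibitory synapses, had 16.2, 23.4 and 3.22 CPM in ZMELR1, against 29.9, 47.1 and 20.9 CPM in ZMEL1. ZMELR1 was below ZMEL1 in each replicate number while the lines overlapped, with a log2 fold change of -1.19 (SE 0.641) and an edgeR adjusted p of 0.301, or 0.0386 with the block. The sign of nlgn3a was thus opposite to that of both nlgn2 copies, and the difference between these genes was not tested. Of the neurexins, 5 of 6 were tested. nrxn2b stood at 2.16 ± 1.19 CPM in ZMELR1 and 3.36 ± 1.17 CPM in ZMEL1 (log2 fold change -0.62, SE 0.456, edgeR adjusted p = 0.44). None of the 4 LRRTM genes, postsynaptic partners of neurexins, had enough reads to be tested.

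Glutamate receptors gave 2 of the 4 calls. Of 31 genes 14 were tested, 2 were lower (14.3%, all genes 2.64%), 0 higher (all genes 3.48%) and 12 did not pass. The median log2 fold change was -0.74. In 7 of the 14 (50%) every ZMELR1 library was below every ZMEL1 library, where 14.4% of all genes tested did so. With the replicate block 7 were lower (50%, all genes 11.8%) and 0 higher (all genes 12.8%). Both counts include grin2ab and grm2a, which reached 10 counts only in ZMEL1 libraries and so entered the test through the line where they were high.

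NMDA receptors need coincident glutamate and depolarization to open, and join grin1 subunits with grin2 subunits. All 5 tested NMDA genes (of 11 in the table) had log2 fold changes below 0, between -3.57 and -1.20 with a median of -2.08. Among them, grin2ab reached 10 counts only in ZMEL1 libraries, so the filter itself favored a value below 0 for it. grin2bb, a GluN2B subunit, had 0.548, 0.308 and 0.842 CPM in ZMELR1, against 5.48, 8.45 and 5.4 CPM in ZMEL1. The ZMELR1 libraries all lay below 1 CPM and did not overlap with ZMEL1. The means were 0.566 ± 0.268 CPM in ZMELR1 and 6.45 ± 1.74 CPM in ZMEL1 (SD, n = 3 each), and the fitted fold was 11.8-fold lower in ZMELR1. Its log2 fold change was -3.57 (SE 0.428, edgeR adjusted p = 0.00573), and the call held with each library left out (edgeR adjusted p 0.00936 to 0.0492, the highest without ZMELR1 replicate 1).

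The other 4 NMDA genes passed the edgeR test only with the replicate block, and DESeq2 without the block called grin2aa and grin2ab (DESeq2 adjusted p = 0.00594 and 0.0204). grin2aa, a GluN2A subunit, had 0.274, 0.143 and 0.248 CPM in ZMELR1, against 0.424, 0.9 and 1.39 CPM in ZMEL1. The lines did not overlap, and the log2 fold change of -2.08 (SE 0.526) had an edgeR adjusted p of 0.0661, or 0.0309 with the block. Its copy grin2ab had 4, 9 and 2 counts in ZMELR1, against 10, 29 and 35 counts in ZMEL1. These few reads gave a log2 fold change of -2.21 (SE 0.529) with an edgeR adjusted p of 0.0564, or 0.0224 with the block.

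grin2da, a GluN2D subunit, had 0.805, 1.53 and 1.07 CPM in ZMELR1, against 1.55, 4.13 and 2.21 CPM in ZMEL1. The highest ZMELR1 library nearly reached the lowest ZMEL1 library, and the log2 fold change of -1.20 (SE 0.443) had an edgeR adjusted p of 0.157, or 0.0198 with the block. grin1b, a copy of the subunit that every NMDA receptor contains, had 0.616, 1.27 and 0.471 CPM in ZMELR1, against 1.73, 5.04 and 0.586 CPM in ZMEL1. Replicate 2 was the highest and replicate 3 the lowest in both lines, so the lines overlapped, and the log2 fold change of -1.60 (SE 0.764) had an edgeR adjusted p of 0.25, or 0.0347 with the block.

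The AMPA receptors, which carry fast excitatory transmission, differed from this picture in their values. The 4 tested genes (of 8) had log2 fold changes between -0.28 and 0.23 and 0 passed, with the block or without. Over all genes tested 3.48% were higher and 2.64% lower without the block, and 12.8% and 11.8% with it. gria4b, a GluA4 subunit, had 2.21, 2.8 and 2.45 CPM in ZMELR1, against 2.22, 2.64 and 2.41 CPM in ZMEL1. The lines overlapped throughout, with a log2 fold change of 0.04 (SE 0.244, edgeR adjusted p = 0.943). Whether the NMDA and AMPA genes differed from each other was not tested.

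Kainate receptors had 2 tested genes of 4. GRIK3, a GluK3 subunit, had 0.497, 0.463 and 0.297 CPM in ZMELR1, against 1.24, 2.83 and 1.81 CPM in ZMEL1. The lines did not overlap, and the means were 0.419 ± 0.107 CPM in ZMELR1 and 1.96 ± 0.804 CPM in ZMEL1 (SD, n = 3 each), with a fitted fold of 4.58-fold lower in ZMELR1. This was a log2 fold change of -2.20 (SE 0.408, edgeR adjusted p = 0.0263). The call was lost whichever library was left out, with an edgeR adjusted p of 0.105, 0.0786 and 0.0505 without ZMELR1 replicates 1, 2 and 3, and of 0.0509, 0.0816 and 0.0748 without ZMEL1 replicates 1, 2 and 3.

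Metabotropic glutamate receptors act through G proteins, and 3 of 8 were tested. grm2a, a receptor that lowers cAMP, had 0.0856, 0.0991 and 0.198 CPM in ZMELR1, against 0.56, 0.443 and 0.257 CPM in ZMEL1. The lines did not overlap, and the log2 fold change of -1.79 (SE 0.471) had an edgeR adjusted p of 0.0719, or 0.0463 with the block.

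GABA and glycine receptors gave the remaining call. Of 28 genes 9 were tested, 1 was lower (11.1%, all genes 2.64%), 0 were higher (all genes 3.48%) and 8 did not pass. With the replicate block 4 were lower (44.4%, all genes 11.8%) and 1 higher (11.1%, all genes 12.8%). gabrr3a had 1.78, 3.34 and 1.76 CPM in ZMELR1, against 7.06, 8.63 and 8.68 CPM in ZMEL1. The lines lay well apart, with means of 2.29 ± 0.905 CPM in ZMELR1 and 8.12 ± 0.92 CPM in ZMEL1 (SD, n = 3 each), with a fitted fold of 3.51-fold lower in ZMELR1. This gave a log2 fold change of -1.81 (SE 0.32, edgeR adjusted p = 0.0223). Leaving out ZMELR1 replicate 1 ended the call at an edgeR adjusted p of 0.106, as did leaving out ZMEL1 replicate 1, 2 or 3 (0.0808, 0.0859 and 0.077).

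The GABA-A alpha subunit gene gabra3 varied more within each line than between them. It had 6.99, 14.6 and 1.04 CPM in ZMELR1, against 4.7, 14.2 and 5.04 CPM in ZMEL1, with a log2 fold change of -0.07 (SE 0.824, edgeR adjusted p = 0.967).

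Both tested glycine receptor genes (of 7) had values below 0. glrbb, a beta subunit that ties the receptor to the synaptic scaffold, had 3.12, 5.58 and 0.595 CPM in ZMELR1, against 24.4, 26.4 and 8.44 CPM in ZMEL1. Every ZMELR1 library was below every ZMEL1 library and replicate 3 was the lowest in both lines. Its log2 fold change was -2.65 (SE 0.751) with an edgeR adjusted p of 0.0876, or 0.00422 with the block and 0.0388 without replicate 3 of both lines. glra1, an alpha subunit that binds glycine, had 1.7, 2.84 and 1.81 CPM in ZMELR1, against 2.48, 6.11 and 3.84 CPM in ZMEL1. The lines overlapped, and the log2 fold change of -0.96 (SE 0.398) had an edgeR adjusted p of 0.195, or 0.0308 with the block.

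GABA-B receptors are G protein-coupled, and all 3 of their genes were tested with values above 0. gabbr1a, a copy of the subunit that binds GABA, stood at 2.11 ± 0.87 CPM in ZMELR1 and 1.89 ± 0.812 CPM in ZMEL1 (log2 fold change 0.14, SE 0.457, edgeR adjusted p = 0.878). gabbr2, the subunit that couples to the G protein, had 0.565, 0.991 and 0.173 CPM in ZMELR1, against 0.119, 0.271 and 0.129 CPM in ZMEL1. ZMELR1 was above ZMEL1 in each number but the lines overlapped, and the log2 fold change of 1.79 (SE 0.633) had an edgeR adjusted p of 0.144, or 0.0322 with the block.

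Of 20 nicotinic receptor genes, 6 were tested and 0 passed (all genes 3.48% higher and 2.64% lower). With the replicate block 1 was lower (16.7%, all genes 11.8%) and 0 were higher (all genes 12.8%). chrna7, whose product forms calcium-permeable channels by itself, had 25.3, 37.5 and 1.19 CPM in ZMELR1, against 5.65, 7.15 and 1.37 CPM in ZMEL1. Replicates 1 and 2 of ZMELR1 stood far above all ZMEL1 libraries, while replicate 3 was the lowest of all 6. With all libraries the log2 fold change was 2.18 (SE 1.06) with an edgeR adjusted p of 0.256, or 0.0589 with the block, 0.0541 without ZMELR1 replicate 3 and 0.038 without replicate 3 of both lines. With any other single library left out, the edgeR adjusted p of chrna7 was 0.340 to 0.467. chrna2b had 0.0856, 0.132 and 0.248 CPM in ZMELR1, against 0.458, 0.571 and 0.386 CPM in ZMEL1. The lines did not overlap, and the log2 fold change of -1.68 (SE 0.42) had an edgeR adjusted p of 0.0648, or 0.0384 with the block and 0.0417 without ZMELR1 replicate 3. With any other single library left out, the edgeR adjusted p of chrna2b was 0.119 to 0.199.

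Vesicle release genes were the group with the most tested members, 16 of 28. In either direction 0 passed (all genes 3.48% higher and 2.64% lower). With the block 3 were higher (18.8%, all genes 12.8%) and 1 lower (6.25%, all genes 11.8%). The median over the tested genes was 0.45 on the log2 scale, and 9 of the 12 tested synaptotagmins were above 0. syt11a, a synaptotagmin that does not bind calcium, held the most reads of all 148 genes, with 352, 398 and 545 CPM in ZMELR1, against 298, 316 and 349 CPM in ZMEL1. The lines did not overlap by a small margin, and the log2 fold change of 0.43 (SE 0.206) had an edgeR adjusted p of 0.251. Its copy syt11b had 0.736, 0.562 and 1.36 CPM in ZMELR1, against 0.424, 0.314 and 0.357 CPM in ZMEL1, also without overlap. The log2 fold change of syt11b was 1.24 (SE 0.412) with an edgeR adjusted p of 0.126, or 0.0494 with the block.

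syt14a had the highest log2 fold change of the 68 genes. This synaptotagmin, also without calcium binding, had 2.67, 2.46 and 8.87 CPM in ZMELR1, against 0.204, 0.457 and 1 CPM in ZMEL1. All ZMELR1 libraries were above all ZMEL1 libraries and replicate 3 was the highest in both lines. A log2 fold change of 3.04 (SE 0.722) had an edgeR adjusted p of 0.0556, or 0.00351 with the block and 0.0483 without replicate 3 of both lines.

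syt1a, a copy of the calcium sensor of fast release, had 1.1, 1.15 and 3.54 CPM in ZMELR1, against 3.75, 5.27 and 6.63 CPM in ZMEL1. The lines nearly met at ZMELR1 replicate 3, and the log2 fold change of -1.47 (SE 0.507) had an edgeR adjusted p of 0.137, or 0.0183 with the block, 0.0217 without ZMELR1 replicate 3 and 0.0441 without replicate 3 of both lines. With any other single library left out, the edgeR adjusted p of syt1a was 0.235 to 0.296. syt6a had 0.188, 0.275 and 0.694 CPM in ZMELR1, against 0.0509, 0.1 and 0.214 CPM in ZMEL1. The lines overlapped by ZMEL1 replicate 3, and the log2 fold change of 1.53 (SE 0.654) had an edgeR adjusted p of 0.208, or 0.0237 with the block. snap25a, a SNARE protein of vesicle fusion, stood at 2.28 ± 0.212 CPM in ZMELR1 and 1.84 ± 0.422 CPM in ZMEL1 (log2 fold change 0.32, SE 0.278, edgeR adjusted p = 0.519). syn2a, a synapsin that tethers vesicles, stood at 3.78 ± 0.916 CPM in ZMELR1 and 4.39 ± 0.453 CPM in ZMEL1 (log2 fold change -0.21, SE 0.266, edgeR adjusted p = 0.664).

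**Figure D3:**
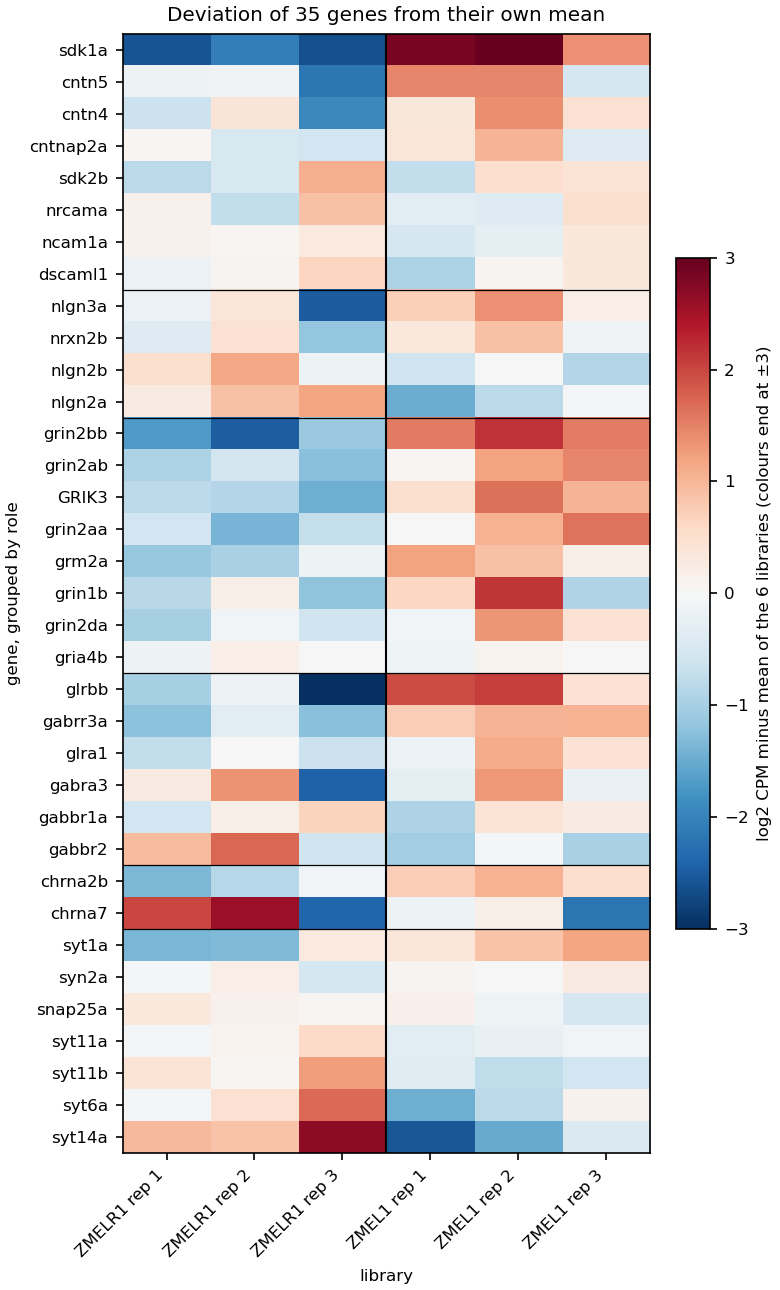
Log2 CPM of 35 named genes (rows, grouped by role) in each of the 6 libraries (columns, ZMELR1 left), minus the gene's mean over the libraries, with red above and blue below the mean. The sdk1a, NMDA and glycine receptor rows are mostly blue in ZMELR1, and several rows, such as chrna7 and cntn5, are blue in replicate 3 of both lines.

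Replicate 3 of both lines differed from replicates 1 and 2 in a number of these genes, and this is given as a description. In 9 of the 68 genes (13.2%) replicate 3 was more than 2-fold below the mean of the other replicates, on the log2 CPM scale, in both lines, where 289 of 16644 genes (1.74%) did so. They were chrna7, chrnb3a, cntn5, glrbb, gria4a, grik5, nlgn1, nrxn1a and syt12. Only gria4a and chrna7 were more than 4-fold below in both lines (2.94%, beside 0.198% of all genes). gria4a, an AMPA subunit, had 2.26, 3.68 and 0.149 CPM in ZMELR1, against 1.9, 3.18 and 0.257 CPM in ZMEL1. Its replicates 1 and 2 were thus many times above replicate 3 in each line, and its log2 fold change was 0.23 (SE 1.01, edgeR adjusted p = 0.914). In the other direction syt14a and syt6a were more than 2-fold above in both lines (2.94%, beside 2.99% of all genes).

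The sources do not say what libraries of 1 number share, so the part of culture or preparation in these values was not tested. Without replicate 3 of both lines 62 of these genes were tested. Of these, 9 passed, 4 higher (6.45%, all genes 1.29%) and 5 lower (8.06%, all genes 1.14%). They were chrna7, cntnap5a, syt14a and syt16, higher, and cntn5, glrbb, grin2bb, sdk1a and syt1a, lower. Replicate 3 of chrna7, cntn5, glrbb and syt14a lay more than 2-fold off in both lines. Leaving it out takes away spread within the lines, so their smaller adjusted p adds no separate support. No fit left out replicate 1 or replicate 2 of both lines. Of the 4 calls made with all libraries, sdk1a and grin2bb remained among the 9 (edgeR adjusted p = 0.0201 and 0.0344), while gabrr3a and GRIK3 did not (0.0864 and 0.0903).

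**Figure D4:**
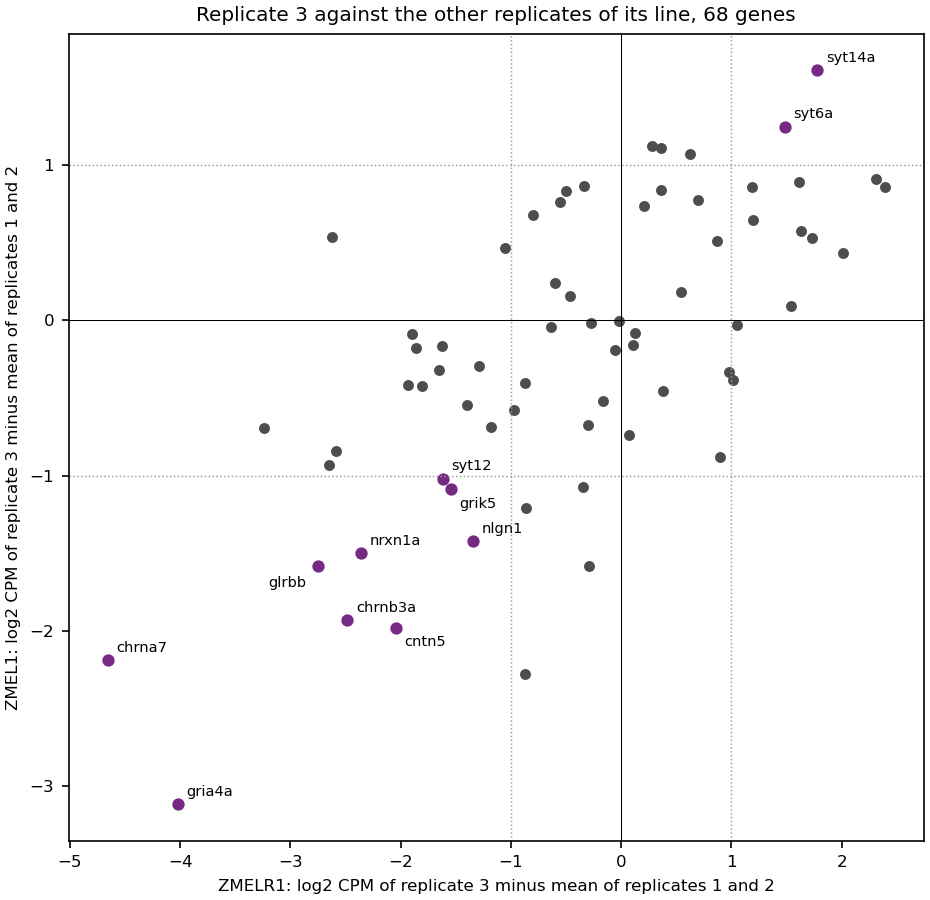
Log2 CPM of replicate 3 minus the mean of replicates 1 and 2, in ZMELR1 (x axis) and in ZMEL1 (y axis), for the 68 genes, with dotted lines at 2-fold. The 9 named genes at lower left were more than 2-fold below in both lines and the 2 at upper right were more than 2-fold above.

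Zebrafish keep many of these genes as a and b copies, and 12 such pairs had both copies tested. In 9 pairs both copies had log2 fold changes of the same sign and in 3 of opposite sign. The pairs of opposite sign were ncam1a and ncam1b (0.27 and -0.67), nrxn2a and nrxn2b (0.76 and -0.62) and syt14a and syt14b (3.04 and -0.91). The difference between copies was not tested, and reads shared by near-identical copies could be split between them.

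Other genes of the synapse were read from 5 lists with 256 names, of which 194 were in the table and 138 were tested. Of these 4 were higher and 4 lower in ZMELR1 (2.9% each, all genes 3.48% and 2.64%), and the median log2 fold change was 0.05. Vesicle release machinery gave 3 higher (8.33%) and 1 lower (2.78%) of 36. The complexin cplx3a, which clamps SNARE complexes, had 1.3, 1.46 and 2.08 CPM in ZMELR1, against 0.034, 0.0143 and 0.0714 CPM in ZMEL1, where it had only 2, 1 and 5 counts. Its log2 fold change was 5.25 (SE 0.496, edgeR adjusted p = 0.00245).

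The active zone gene erc1a had 0.12, 0.0991 and 0.0991 CPM in ZMELR1, against 3.58, 4.2 and 9.66 CPM in ZMEL1. Its lines were far apart, with a log2 fold change of -5.76 (SE 0.563, edgeR adjusted p = 0.00314). Both genes met the filter only through the line where they were high, and with a library of that line left out they were not tested. With at least 10 counts required in every library, 2 related genes were higher and 2 lower (1.77% each, all genes 2.01% and 1.16%). The vesicle membrane gene syngr2a averaged 380 ± 136 CPM in ZMELR1 and 80.8 ± 25.5 CPM in ZMEL1 (SD, n = 3 each, log2 fold change 2.23, edgeR adjusted p = 0.0133). The active zone gene rims2b averaged 46 ± 2.94 CPM in ZMELR1 and 19.2 ± 5.16 CPM in ZMEL1 (SD, n = 3 each, log2 fold change 1.26, edgeR adjusted p = 0.021).

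Postsynaptic scaffolds gave 0 higher and 1 lower of 27, lin7a, a scaffold that binds receptors through its PDZ domain, at 2.22 ± 1.6 CPM in ZMELR1 and 17 ± 4.31 CPM in ZMEL1 (log2 fold change -2.91, edgeR adjusted p = 0.0478). Transmitter synthesis and transport gave 0 higher and 1 lower of 17, glula, a glutamine synthetase, at 34.5 ± 6.88 CPM in ZMELR1 and 81.5 ± 15 CPM in ZMEL1 (log2 fold change -1.24, edgeR adjusted p = 0.0225). Receptor auxiliary proteins gave 0 higher and 1 lower of 24, cbln1, a cerebellin that bridges neurexins and glutamate receptors, at 0.46 ± 0.104 CPM in ZMELR1 and 1.94 ± 0.609 CPM in ZMEL1 (log2 fold change -2.11, edgeR adjusted p = 0.0198). Other synaptic adhesion genes gave 1 higher and 0 lower of 34, the teneurin tenm1, at 14.2 ± 8.05 CPM in ZMELR1 and 2.99 ± 0.412 CPM in ZMEL1 (log2 fold change 2.25, edgeR adjusted p = 0.0389). These means are ± SD with n = 3 each. In this order, the single calls were 3.7%, 5.88%, 4.17% and 2.94% of the genes tested in each list. Over all genes tested 2.64% were lower and 3.48% higher, so 1 call in a list describes that gene and not the list.

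The other 6 calls were lost in some of the fits that left out a library. Those of lin7a, cbln1 and tenm1 were lost without any library but ZMELR1 replicate 3, with an edgeR adjusted p of 0.0821 to 0.154, 0.0542 to 0.105 and 0.0859 to 0.161 when lost. That of glula was lost without replicate 1 or 2 of either line (0.0692 to 0.101). The call of syngr2a was lost without ZMELR1 replicate 1 and ZMEL1 replicates 1 and 2 (0.0577 to 0.0824), and that of rims2b without ZMELR1 replicates 1 and 2 and ZMEL1 replicates 1 and 3 (0.0604 to 0.107).

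Marker genes of other cells were also read, since neurons, glia or muscle express many of the genes above. Shares called are given in percent of the markers tested, where 3.48% of all genes tested were higher and 2.64% lower. Of 27 neuron markers 23 were in the table and 11 were tested, with mapta higher (9.09%) and nefla lower (9.09%). The median log2 fold change of the tested neuron markers was -0.41, with 3 above 0 and 8 below. With the replicate block 1 was higher (9.09%, all genes 12.8%) and 3 were lower (27.3%, all genes 11.8%). The summed level of the neuron markers was 75.2 to 119 CPM in ZMELR1 and 102 to 112 CPM in ZMEL1. Among them phox2bb was at 0 in every library. elavl3, an RNA-binding protein of young neurons, stood at 0.0743 to 0.12 CPM in ZMELR1 and 0.0857 to 0.343 CPM in ZMEL1. Nearly all of the sum thus came from the other neuron markers, and these low levels do not describe the list. Of 18 glia markers 9 were tested, with mbpa and pou3f1 higher (22.2%) and fabp7a lower (11.1%). The summed level of the glia markers was 427 to 930 CPM in ZMELR1 and 1768 to 3373 CPM in ZMEL1. olig1 and foxd3 were at 0, so this sum came from the other glia markers. The median log2 fold change of the tested glia markers was 0.05, with 5 above 0 and 4 below, so most did not share the lower sum. Of 22 muscle markers 11 were tested, with myod1 lower (9.09%) and 0 higher. The muscle sum was 7.55 to 15 CPM in ZMELR1 and 9.5 to 11.5 CPM in ZMEL1, with myog at 0. Of 16 melanocyte markers 13 were tested, with kita, slc24a5 and tyrp1b higher and oca2 lower, and the sum was 2414 to 2795 CPM in ZMELR1 and 1269 to 1597 CPM in ZMEL1. Each of the 10 marker calls made without the block was lost in at least 3 of the 6 fits that left out a library. The part of these shifts in the values of the receptor and adhesion genes was not tested, and in bulk RNA fewer cells with a transcript and less of it per cell cannot be told apart.

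Of the 148 genes 80 were not tested. They include 3 with 0 counts in every library, and the sum over the 6 libraries was at most 52 counts, with a median of 11. cntnap5b, with that sum, lay just outside the filter with 3, 2 and 4 counts in ZMELR1 and 8, 15 and 20 counts in ZMEL1, and nrxn2a lay just inside it with 12, 17 and 4 counts in ZMELR1 and 5, 5 and 10 counts in ZMEL1. In the other direction chrna6, also outside the filter, had 7, 11 and 18 counts in ZMELR1 and 2, 0 and 2 counts in ZMEL1. Differences in these genes were not tested with this filter.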

How the data were processed

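Total RNA of 3 ZMELR1 and 3 ZMEL1 cultures, grown at 28.5 °C in 10% serum, was read by sequencing of polyA-selected libraries. The authors aligned reads to Zv9 with TopHat2 and counted them with HTSeq, and the deposited values are whole-number counts per gene name, not normalized. Strand setting and counting mode are not given in the sources used here, so copies, overlapping and antisense genes may share reads.

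Names were matched by pattern, and genes with at least 10 counts in 3 or more of the 6 libraries were kept. The lines were compared in R 4.3.3 with edgeR 4.0.16 (TMM, quasi-likelihood F test, Benjamini-Hochberg adjustment over 16644 genes). SE is the size of the log2 fold change over the square root of F. The study describes the libraries of a line as independent biological replicates, without saying how they were separated. No pair of libraries agreed within counting error. With line means removed, deviations of log2 CPM (prior count 2) had a correlation of 0.552, 0.587 and 0.508 for same-numbered libraries of the lines, so the numbers pair the libraries. The correlation was -0.506 to -0.0253 for all other pairs across the lines. Removing the line means makes these negative on average once the same-numbered ones are positive, so they add no separate support.

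Alternatives were DESeq2 1.42.0, limma-voom (limma 3.58.1), RLE factors, library size only, filterByExpr, at least 1 count in total, at least 10 counts in every library, the older and the robust fit, the replicate block, each library left out, and replicate 3 of both lines left out. The named genes are the sidekicks, every call, the genes called by edgeR with the block only, and the tested gene with most counts in each family. Up to 6 called genes are named per related list, and other genes named were chosen after their values were seen. Of the genes this rule takes, 2 are counted in the totals but are not reported here. The genes and lists were chosen with earlier results of these data known. Of the 148 names, 136 matched the RefSeq gene table (GRCz12tu). Figures used matplotlib 3.10.9.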

Additional observations from a re-analysis of the deposited data

How the results depend on the processing

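Depth limits the genes with few reads, and 3 libraries per line leave wide errors. Each fit with a library left out holds 2 libraries in that line, and edgeR pools the spread over both. sdk1a and grin2bb were called under every alternative run, while gabrr3a and GRIK3 were not called without most single libraries. The cause of these changes was not tested. Of 611 values of the 37 named genes under alternatives, 546 kept direction and side of the threshold, 37 passed it newly, 12 no longer passed it and 16 changed sign.

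The number of genes tested differs between settings, so shares are of those tested. Of the genes described, 0 were higher in the edgeR test. DESeq2 gave 4 (5.88%, all genes 7.52%), library size only 1 (1.47%, all genes 3.12%) and at least 1 count in total 1 (0.69%, all genes 2.06%). The replicate block gave 6 (8.82%, all genes 12.8%) and single libraries left out 0 to 3 (0 to 4.41%, all genes 0.507 to 3.01%). Leaving out replicate 3 of both lines gave 4 (6.45%, all genes 1.29%). The 4 lower genes became 10 with DESeq2 (14.7%, all genes 6.55%) and 17 with the replicate block (25%, all genes 11.8%). They became 2 to 5 with a library left out (3.08 to 7.35%, all genes 0.349 to 2.63%). Without replicate 3 of both lines they became 5 (8.06%, all genes 1.14%). In the related lists the 4 higher genes became 12 with DESeq2 (8.7%, all genes 7.52%) and 2 where every library had to reach 10 counts (1.77%, all genes 2.01%). They became 21 with the replicate block (15.2%, all genes 12.8%) and 0 to 7 with a library left out (0 to 5.19%, all genes 0.507 to 3.01%). The 4 lower ones became 8 (5.8%, all genes 6.55%), 2 (1.77%, all genes 1.16%), 19 (13.8%, all genes 11.8%) and 0 to 7 (0 to 5.19%, all genes 0.349 to 2.63%) in the same settings. Without replicate 3 of both lines they became 2 (1.54%, all genes 1.14%). Over all genes tested the 579 higher became 1252 with DESeq2, 294 where every library had to reach 10 counts, 2129 with the replicate block, 83 to 495 with a library left out and 205 without replicate 3 of both lines, and the 440 lower became 1091, 169, 1972, 57 to 433 and 182.

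Changes of sign concerned only genes that were not called. With a library left out, the log2 fold change of dscaml1 ran from -0.0067 (without ZMEL1 replicate 1) to 0.53, and that of nrcama from -0.23 (without ZMELR1 replicate 3) to 0.56. For gabbr1a it ran from -0.17 (without ZMEL1 replicate 1, and likewise without ZMELR1 replicate 3) to 0.42, and was -0.084 without replicate 3 of both lines. For gabra3 it ran from -0.996 to 0.61 (without ZMEL1 replicate 2), with 0.44 without ZMELR1 replicate 3 and 0.15 without replicate 3 of both lines. For gria4b it ran from -0.068 (without ZMELR1 replicate 2) to 0.12, with -0.028 and -0.0060 without ZMEL1 replicates 1 and 3. For sdk2b it ran from -0.82 to 0.30 (without ZMELR1 replicate 1), with 0.22 without ZMELR1 replicate 2 and 0.16 and 0.086 without ZMEL1 replicates 2 and 3. For syn2a it was 0.0044 without replicate 3 of both lines.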

Other observations

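The genes next to the 4 lower genes were read as well, taking 5 on each side in the order of the GRCz12tu annotation, which is not the build of the counts. Of 40 neighbours 15 were tested, and the rest were missing by name from the counts or had too few reads. Of the 15, 0 were called by edgeR (all genes 3.48% higher and 2.64% lower), and 0 by DESeq2 and by limma-voom. At an unadjusted p under 0.05 edgeR gave 3 (all genes 13.2% higher and 11.1% lower), and with the replicate block 2 (12.8% and 11.8%). With so few genes tested, these counts cannot be set apart from the shares over all genes. Their log2 fold changes lay between -0.53 and 1.11. Around sdk1a 5 of 10 neighbours were tested, with values between -0.29 and 0.60, beside -5.06 for sdk1a itself.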
